A study of Mus musculus with 16 samples.

Results

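Angiogenic factors, their receptors and endothelial genes were followed in whole mouse ovaries as a set of 10 genes, picked by symbol out of the 55426 genes of the deposited table. The set holds the secreted factors Vegfa, Vegfc, Angpt1 and Angpt2, the receptors Kdr, Flt1 and Tek, the junction proteins Pecam1 and Cdh5, and the cell-cycle regulator Rgcc. All 10 had a row, and all 10 passed the filter on low counts, with 280 to 5853 counts per library. The ovaries came from 16 female C57BL/6NHsd mice, 4 in each of 4 groups, with 1 ovary per mouse and each collected in diestrus. On T mice were injected subcutaneously once a week with 0.9 mg testosterone enanthate, an ester that releases testosterone slowly. Injections began at an age of 9 to 10 weeks and went on for 6 weeks, and the mice were 16 weeks old at collection. Post T mice had the same 6 weeks of injections, were then left until estrous cycles came back, and were collected 4 cycles later at 24 to 28 weeks. Each treated group had its own parallel controls that were injected with sesame oil, named Control for On T (16 weeks old) and Control for Post T (24 to 28 weeks old). The RNA was poly(A) RNA of the whole organ, so no value belongs to a single cell type.

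Blood vessels sprout and regress in the adult ovary with each follicle and corpus luteum. VEGF-A is the main growth signal for blood endothelium and acts through the receptor KDR (VEGFR2), while FLT1 (VEGFR1) binds the same ligand tightly and can act as a decoy, and VEGF-C acts mainly on lymphatic endothelium. The angiopoietins signal through the endothelial receptor TEK (TIE2), where ANGPT1 stabilises vessels and ANGPT2 acts in most settings as its antagonist and loosens them. PECAM1 and VE-cadherin, the product of Cdh5, hold endothelial cells together at their junctions. Rgcc encodes RGC-32, a cell-cycle regulator described in endothelial cells as hypoxia-inducible and as a restraint on vessel growth.

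RefSeq promoter sequences of build GRCm38.p6 were matched by symbol for 6 of the 10 genes (7 windows), and 2 are shown. Rgcc is shown because it had the largest change of the set in both treatment comparisons, and Vegfa because it is the central ligand and shared an extreme library, by CPM, with Rgcc. Each is written 5′ to 3′ on the strand of the gene and stops before the first annotated exon base. That of Rgcc is the 240 bases at chr14:79301646-79301885 on the minus strand, and that of Vegfa is the 250 bases at chr17:46032378-46032627 on the minus strand.
Rgcc: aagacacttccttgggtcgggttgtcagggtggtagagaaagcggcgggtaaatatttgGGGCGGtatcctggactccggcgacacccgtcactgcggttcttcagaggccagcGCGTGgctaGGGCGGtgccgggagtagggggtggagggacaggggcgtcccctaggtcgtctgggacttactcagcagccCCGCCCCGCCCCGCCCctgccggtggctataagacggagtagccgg
Vegfa: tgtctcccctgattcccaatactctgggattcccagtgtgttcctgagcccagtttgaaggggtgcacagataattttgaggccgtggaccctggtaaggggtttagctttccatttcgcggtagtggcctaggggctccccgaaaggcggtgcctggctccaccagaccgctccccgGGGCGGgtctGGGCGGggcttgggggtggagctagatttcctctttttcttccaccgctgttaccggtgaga
Capitals mark matches, on either strand, to the GC box GGGCGG and to the hypoxia response cores ACGTG and GCGTG. The motif ACGTG is part of the E-box CACGTG, which was searched too, as were the half-sites AGAACA (androgen or glucocorticoid receptor) and AAGGTCA (NR5A receptors). The Rgcc window held 5 matches to the GC box, of which the 3 on the other strand overlap by single bases, and 1 match to GCGTG. The Vegfa window shown held 2 GC boxes and no match to the other motifs. Vegfa had another window, at chr17:46025164-46025413, which is not shown because 218 of its 250 bases are exonic. That window held matches to both hypoxia cores, ACGTG and GCGTG, and to the GC box. Of all 32851 RefSeq windows of 250 bases, 32.7% held a GC box, 38.6% held either hypoxia core, 16.1% held AGAACA, 4.08% held AAGGTCA and 6.02% held CACGTG. These matches describe the letters of the windows only.

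All 10 genes are protein-coding in GENCODE M21 for GRCm38, the build named for these files. Rgcc (ENSMUSG00000022018) spans 79288756 to 79301645 on chromosome 14, Vegfa (ENSMUSG00000023951) spans 46016993 to 46032369 on chromosome 17, Angpt1 (ENSMUSG00000022309) spans 42424723 to 42676977 on chromosome 15, and Angpt2 (ENSMUSG00000031465) spans 18690263 to 18741562 on chromosome 8, all read from the minus strand. Flt1 (147561604 to 147726011) and Kdr (75932827 to 75978458) share chromosome 5. Values are sums over the exons of a gene, so soluble and membrane forms of Flt1 are not separated. Of the exonic bases of Angpt1, 14.2% also lie in Gm17473, a gene read in the other direction. The sources used here do not say whether reads were counted by strand. No other member shared exon bases with another gene.

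Library totals ranged from 26598055 to 52659637 expected counts, and 18833 genes had enough counts to be tested. Levels are given as CPM (library-scaled counts, with TMM factors), and a gene is said to have risen or fallen where edgeR's quasi-likelihood test passed 0.05 after Benjamini-Hochberg adjustment over all tested genes. All 12 markers of granulosa cells, theca and oocytes were detected, with a sum of 2231 to 8609 CPM over the 16 libraries. Luteal markers summed to 12493 to 15075 CPM in the Control for On T and 5121 to 9089 on testosterone, and to 10510 to 22692 and 6260 to 10721 in the later cohort. Of the 12 luteal markers, 9 fell, 0 rose and 3 were not called on testosterone. After it 8 fell, 0 rose and 4 were not called. Among those that fell most, mean CPM in the Control for Post T and in Post T was 139 and 0.207 for Akr1c18. It was 429 and 4.11 for Ptgfr, and 1132 and 25.4 for Sfrp4. Macrophage and leukocyte markers summed to 193 to 282 CPM and 302 to 537 in the first cohort, and to 297 to 514 and 2217 to 3295 in the second. Gpnmb held a large part of both macrophage rises, with means of 35.2 and 226 CPM in the first cohort and 110 and 1917 in the second. Of the 10 macrophage and leukocyte markers, 4 rose, 1 fell and 5 were not called on testosterone (median log2 0.19). After it 7 rose and 1 fell (median 1.51), and Cx3cr1 was the one that fell in both comparisons. Luteal markers and some macrophage markers thus moved with treatment beside every result below, and their part in those results was not tested. Adipocyte markers summed to 57.5 to 121 CPM in all groups but Post T, where they summed to 165 to 169. Whether these transcripts came from fat around the ovary was not tested. Of the 5 tested, Fabp4, which macrophages and capillaries also express, was the 1 called (15.9 ± 6.43 to 92.8 ± 23.8 CPM after testosterone). Plin1 (log2 1.16, edgeR adjusted p = 0.138), Pparg (0.23) and the defining Adipoq (-0.09) and Cidec (-0.17) did not pass after testosterone.

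Per unit of length, Rgcc was the most abundant of the 10 transcripts in both control groups, at 78.7 ± 18.7 TPM in the Control for On T and 95.5 ± 31.8 TPM in the Control for Post T (SD, n = 4). In the older controls its range lay above that of Vegfa, the next gene, while in the younger ones it overlapped that of Cdh5. Cdh5, Vegfa and Pecam1 followed at 44.1 ± 11.8, 41.7 ± 9.49 and 38.3 ± 10.98 TPM in the Control for On T, and their ranges overlapped one another. Kdr, at 17.5 ± 3.73 TPM, lay apart from Pecam1 above it and Angpt2 below it (12.4 ± 0.710 TPM). From Angpt2 down, Tek (10.98 ± 1.48 TPM), Flt1 (7.76 ± 2.08 TPM) and Vegfc (7.55 ± 0.932 TPM) each overlapped with the gene above. Angpt1 came last at 5.68 ± 0.385 TPM, and its range lay wholly below that of Vegfc. In the Post T ovaries the order was led by Cdh5 at 43.8 ± 1.63 TPM, and Rgcc stood at rank 4 with 28.0 ± 2.16 TPM, with no overlap with Pecam1 above it or Kdr below it.

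**Figure D1:**
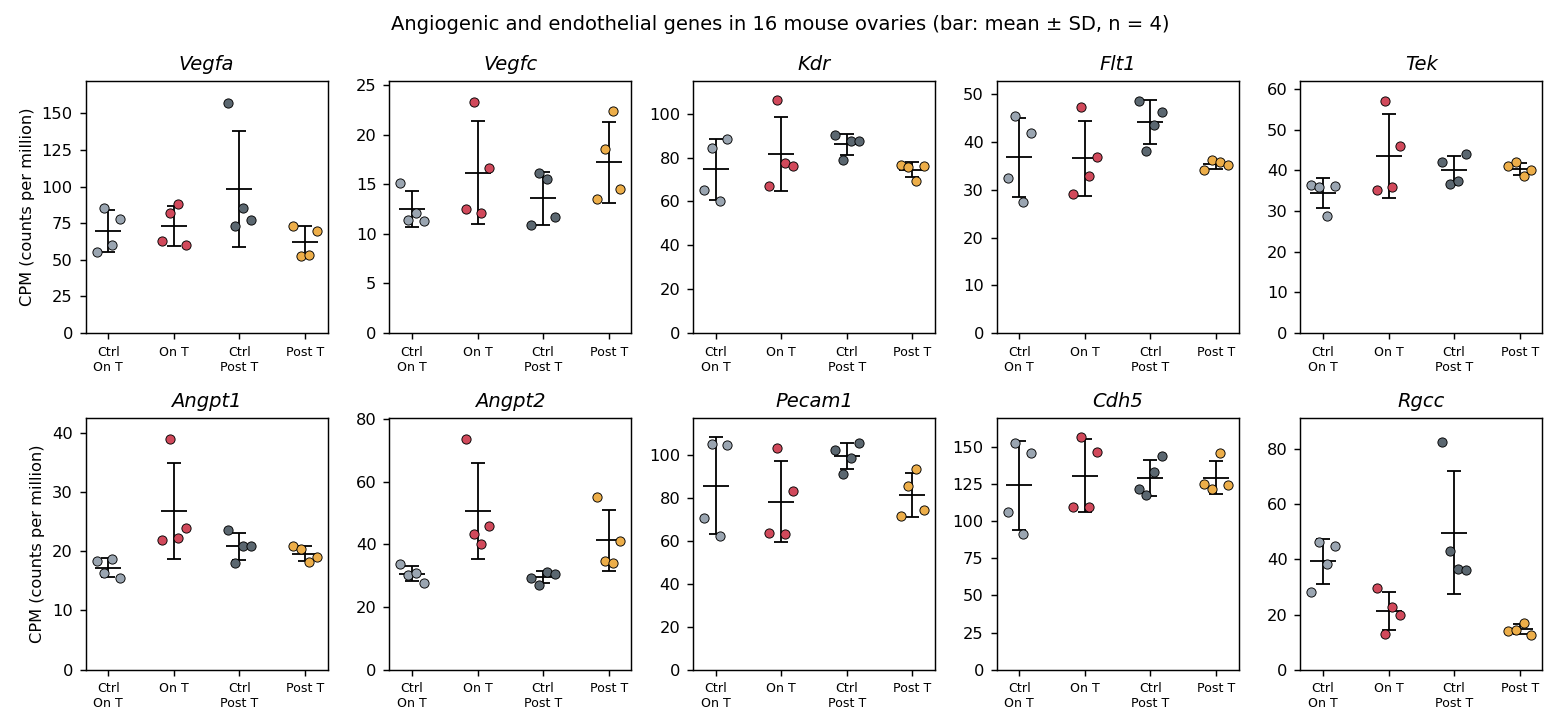
Levels of the 10 genes in CPM (vertical axis, linear, from 0) in the 4 groups, where each point is 1 ovary and the bar is the mean ± SD of 4. Rgcc lies between 12.8 and 17.1 CPM in the 4 Post T ovaries and between 36.3 and 82.7 CPM in their controls, while Cdh5 spans much the same range in all groups.

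The first comparison asked what differed in the ovary while testosterone was being given. Both angiopoietin genes rose and Rgcc fell, while Vegfa, the 3 receptors and the junction genes did not pass the test. Of the 10 members, 2 rose and 1 fell, where 9.27% of all tested genes were called, 4.24% higher and 5.03% lower. The median log2 fold change of the set was 0.10, beside -0.01 for all tested genes.

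Angpt2, the vessel-destabilising ligand, measured 33.8, 30.3, 30.7 and 27.8 CPM in the 4 Control for On T ovaries and 73.6, 43.2, 40.0 and 45.9 CPM in the 4 On T ovaries. The groups did not overlap, as was the case for 15.1% of all tested genes (7.22% higher, 7.92% lower), and On T library 1 stood above the other 3 treated ones. The means were 30.7 ± 2.46 and 50.7 ± 15.4 CPM (SD, n = 4), a 1.65-fold rise (log2 0.73, SE 0.18, edgeR adjusted p = 0.0148). Angpt1, the vessel-stabilising ligand, measured 18.3, 16.3, 18.7 and 15.5 CPM in controls and 22.0, 39.0, 22.2 and 24.0 CPM on testosterone. These groups did not overlap either, and here the high treated library was another one, On T library 2. Its means were 17.2 ± 1.57 and 26.8 ± 8.17 CPM (log2 0.64, SE 0.15, edgeR adjusted p = 0.0156). The call of Angpt1 ended without Control for On T library 2 (log2 0.62, adjusted p = 0.0531) or library 4 (log2 0.60, adjusted p = 0.0591), with only the 8 compared libraries fitted (log2 0.65, adjusted p = 0.0752), and without On T libraries 2 and 4 together (log2 0.36, adjusted p = 0.108).

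Rgcc measured 28.3, 46.3, 38.4 and 44.7 CPM in controls and 29.7, 12.9, 22.9 and 19.7 CPM on testosterone. The groups overlapped through the first library of each, the lowest control and the highest treated ovary. Its mean of 39.4 ± 8.15 CPM in controls fell to 21.3 ± 6.96 CPM on testosterone (log2 -0.88 with SE 0.26, edgeR adjusted p = 0.0458). In a bulk organ, fewer cells of a type and less RNA per cell cannot be told apart. This call sat close to the threshold and ended in 11 of the 16 fits that left out a single library, 5 of which left out a library of the other cohort. Their adjusted p lay between 0.0533 and 0.130, and with On T libraries 2 and 4 both left out the log2 fold change was -0.58 (adjusted p = 0.337).

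The other secreted factors gave no call. Vegfa stood at 55.1, 85.7, 60.03 and 77.8 CPM in controls and at 62.6, 81.8, 88.0 and 60.05 CPM on testosterone, so both groups covered the same range (log2 0.07, 95% interval -0.40 to 0.54, edgeR adjusted p = 0.892). Vegfc, the lymphatic ligand, was at 11.3 to 15.2 CPM in controls and 12.1 to 23.4 CPM on testosterone, with On T library 2 the highest (log2 0.37, interval -0.08 to 0.82, edgeR adjusted p = 0.336).

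Among the receptors, Tek had the largest difference, from 28.8 to 36.4 CPM in controls to 35.1 to 57.0 CPM on testosterone, and it did not pass (log2 0.34, interval 0.06 to 0.62, edgeR adjusted p = 0.126). Kdr was at 60.2 to 88.4 and 67.1 to 106 CPM (log2 0.13, interval -0.15 to 0.42). Flt1 was at 27.3 to 45.4 and 29.2 to 47.4 CPM, nearly the same span in both groups (log2 -0.01, interval -0.34 to 0.32). Its sign turned under several settings, among them median-of-ratios size factors (log2 0.01). The junction genes behaved likewise. Pecam1 lay at 62.5 to 105 and 63.1 to 103 CPM (log2 -0.13, interval -0.50 to 0.24), and Cdh5 at 91.5 to 152 and 109 to 157 CPM (log2 0.07, interval -0.25 to 0.40). The edgeR adjusted p of these 4 genes lay between 0.617 and 0.981. In the same libraries Akr1c18, the luteal enzyme that inactivates progesterone, averaged 141 ± 35.3 CPM in controls and 0.643 ± 0.268 CPM on testosterone.

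**Figure D2:**
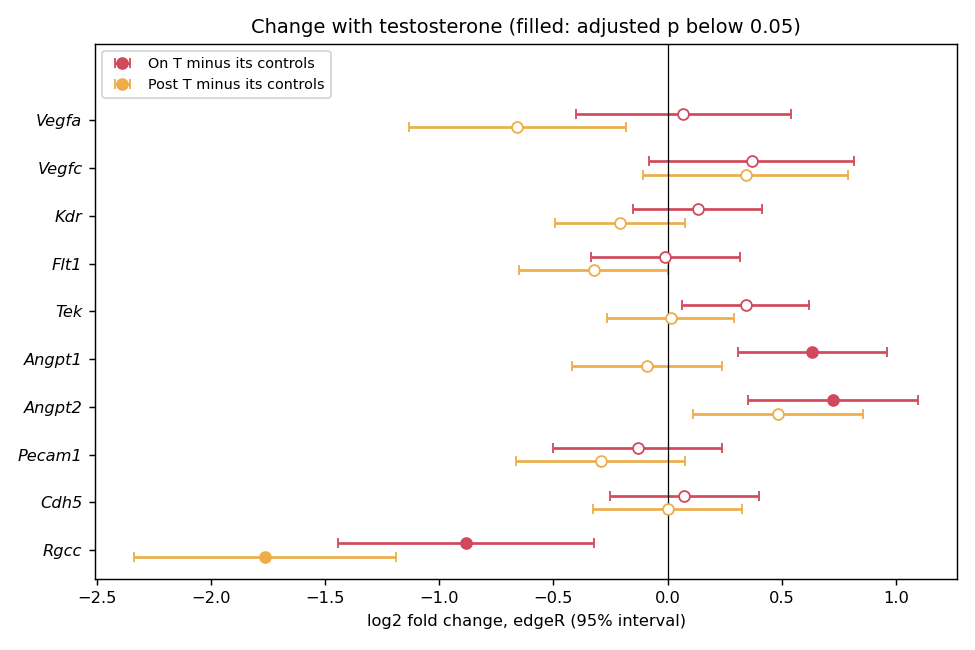
Log2 fold change of each gene with its 95% interval (horizontal axis, edgeR) for On T and Post T ovaries against their own controls, with filled points where the adjusted p passed. Angpt1, Angpt2 and Rgcc are filled for On T, and Rgcc is filled for Post T, at -1.76.

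The second comparison asked what differed 4 estrous cycles after the end of treatment. Rgcc was the member that fell, to less than in any control ovary of the study, and no member rose. Of the 10 members 0 rose and 1 fell, where 12.3% of all tested genes were called, 7.49% higher and 4.81% lower. At an unadjusted p of 0.05 there were 3 members (Rgcc, Vegfa and Angpt2), beside 4306 of the 18833 tested genes. The median log2 fold change of the set was -0.15, beside -0.01 for all genes. Cdh5, the endothelial cadherin, was at the same mean in both groups.

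Rgcc measured 82.7, 43.2, 36.7 and 36.3 CPM in the Control for Post T and 14.2, 14.5, 17.1 and 12.8 CPM in the Post T ovaries. Groups did not overlap, as for 16.5% of all tested genes (9.62% higher, 6.92% lower), and 1 control, library 1, stood far above the other 3. The mean was 49.7 ± 22.2 and 14.6 ± 1.81 CPM, 0.295 of the control level (log2 -1.76, SE 0.27, edgeR adjusted p = 0.000229). The fall was called under every alternative run, and with that control library left out it measured log2 -1.38 (adjusted p = 0.000378). The spread between the 4 treated ovaries was small beside that of the controls.

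Vegfa measured 157, 72.9, 85.7 and 77.4 CPM in controls and 73.1, 52.6, 53.5 and 69.6 CPM in the Post T ovaries. The groups overlapped by the narrow margin between 72.9 and 73.1 CPM, and the highest value was again that of Control for Post T library 1. The controls spread less in TPM, at 57.4 ± 11.7 TPM (47.7 to 73.4) beside 98.3 ± 39.6 CPM. Vegfa did not pass (log2 -0.66, interval -1.13 to -0.18, edgeR adjusted p = 0.0690), but it passed in DESeq2 (log2 -0.67, adjusted p = 0.0316), with age as a covariate (log2 -0.63, adjusted p = 0.0470) and without Control for Post T library 2 (log2 -0.77, adjusted p = 0.0392). Without library 1 its log2 fold change was -0.32 (adjusted p = 0.307). Summed luteal markers were also highest in that library, at 22692 CPM, against 10510 to 18170 CPM in the other 3 controls, and the part of luteal tissue in the level of Vegfa was not tested.

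Angpt2 measured 29.1, 27.1, 31.3 and 30.7 CPM in controls and 55.3, 34.7, 34.0 and 41.1 CPM in the Post T ovaries, with no overlap. The difference did not pass (log2 0.48, interval 0.11 to 0.85, edgeR adjusted p = 0.0924), though it passed with a replicate block (log2 0.45, adjusted p = 0.0441) and without On T library 1 (log2 0.50, adjusted p = 0.0175), a library outside this comparison that enters through the shared spread. Angpt1 lay at 17.99 to 23.5 CPM in controls and at 18.1 to 20.9 CPM in the Post T ovaries (log2 -0.09, interval -0.42 to 0.24). Vegfc lay at 10.9 to 16.2 and 13.5 to 22.4 CPM (log2 0.34, interval -0.11 to 0.79).

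Kdr and Flt1 were lower in every Post T ovary than in any of their controls without passing the test. Kdr was at 78.9 to 90.2 CPM in controls and 69.5 to 76.7 CPM after testosterone (log2 -0.21, interval -0.49 to 0.08, edgeR adjusted p = 0.406). Flt1 was at 38.1 to 48.6 and 34.1 to 36.3 CPM (log2 -0.32, interval -0.65 to 0.004, edgeR adjusted p = 0.226), and it passed in a fit of the 8 libraries alone (log2 -0.33, adjusted p = 0.0463). Tek (36.6 to 44.0 and 38.5 to 42.1 CPM, log2 0.01) and Cdh5 (117 to 144 and 121 to 145 CPM, log2 0.00) had intervals from -0.26 to 0.29 and from -0.33 to 0.33. Pecam1 was at 91.3 to 106 and 71.7 to 93.7 CPM (log2 -0.29, interval -0.67 to 0.08, edgeR adjusted p = 0.359).

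The difference between the effects was tested directly. For 0 of 10 members did the Post T effect differ from the On T effect, where 3.25% of all tested genes did by edgeR (2.93% higher, 0.324% lower). At an unadjusted p of 0.05 there were 3 (Angpt1, Vegfa and Rgcc), beside 2692 of the 18833 tested genes. DESeq2 called 1 member, Angpt1 (log2 -0.75, adjusted p = 0.0364), beside 999 of all genes. The differences were -0.72 for Angpt1 (SE 0.22, edgeR adjusted p = 0.0933), -0.73 for Vegfa (SE 0.32, edgeR adjusted p = 0.293) and -0.88 for Rgcc (SE 0.37, edgeR adjusted p = 0.278). The larger fall of Rgcc after testosterone than during it thus did not pass the test of the difference.

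The older and younger controls differed in age and in cohort, which cannot be told apart. Of the members 0 were called between them by edgeR, DESeq2 or limma, as were 0 of all tested genes by edgeR (1892 at an unadjusted p of 0.05) and 173 by DESeq2. At an unadjusted p of 0.05 there was 1 member, Vegfa, at 69.7 ± 14.5 CPM in the younger and 98.3 ± 39.6 CPM in the older controls (log2 0.50, edgeR adjusted p = 0.466). Tek was the member whose control groups did not overlap, at 28.8 to 36.4 and 36.6 to 44.0 CPM (log2 0.22, edgeR adjusted p = 0.609), which was the case for 5.89% of all genes (3.28% higher, 2.61% lower).

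With group means removed, most pairs of endothelial surface genes varied together over the 16 ovaries, though the signs were mixed within the Post T group. Each group's mean log2 CPM was subtracted, and the 45 pairs of members were compared over the 16 libraries with permutations within groups. Of the 45 pairs, 7 passed after Benjamini-Hochberg adjustment, all positive and all among the 10 pairs of Pecam1, Cdh5, Flt1, Kdr and Tek. Pecam1 and Cdh5 had r = 0.94 (permutation p = 0.00037, adjusted p = 0.00832; rho 0.93, permutation p = 0.00204, adjusted p = 0.0459), and r = 0.92 without the 2 libraries farthest from the median of Pecam1. Flt1 and Pecam1 had r = 0.93 (permutation p = 5e-05, adjusted p = 0.00225; rho 0.92, permutation p = 7e-05, adjusted p = 0.00315), and r = 0.88 without the 2 farthest libraries. These 2 pairs also passed by rank, and the other 5 did not. With 4 libraries a group is too small for a test of its own, and within Post T 6 of the 10 r were negative, the lowest for Kdr and Cdh5 (-0.97), Tek and Cdh5 (-0.88) and Kdr and Pecam1 (-0.85). Those of Flt1 and Pecam1 (0.84), Kdr and Tek (0.80), Pecam1 and Cdh5 (0.69) and Flt1 and Cdh5 (0.24) were positive. Post T library 3 held the lowest Kdr (69.5 CPM) and the highest Cdh5 (145 CPM) of its group, and no r was computed without it alone. In the other 3 groups all 10 were positive. In the Control for On T, for example, libraries 2 and 4 held 105 and 105 CPM of Pecam1 and libraries 1 and 3 held 70.6 and 62.5 CPM, and the same pair of libraries was high for Cdh5, Kdr and Flt1.

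No pair with an angiopoietin, a VEGF ligand or Rgcc passed. Angpt1 and Tek, ligand and receptor, had r = 0.69 (permutation p = 0.0576, adjusted p = 0.199; rho 0.46, permutation p = 0.165, adjusted p = 0.449), which became 0.26 without the 2 farthest libraries. Angpt2 had negative r with each of the 5 surface genes (-0.24 to -0.43), and Rgcc had r from -0.43 to -0.08 with them, with no adjusted p under 0.05. Vegfa and Rgcc had r = 0.46 (permutation p = 0.174, adjusted p = 0.461; rho 0.47, permutation p = 0.118, adjusted p = 0.379), which became 0.02 without the 2 libraries farthest from the median of Vegfa, so it rested on those libraries.

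**Figure D3:**
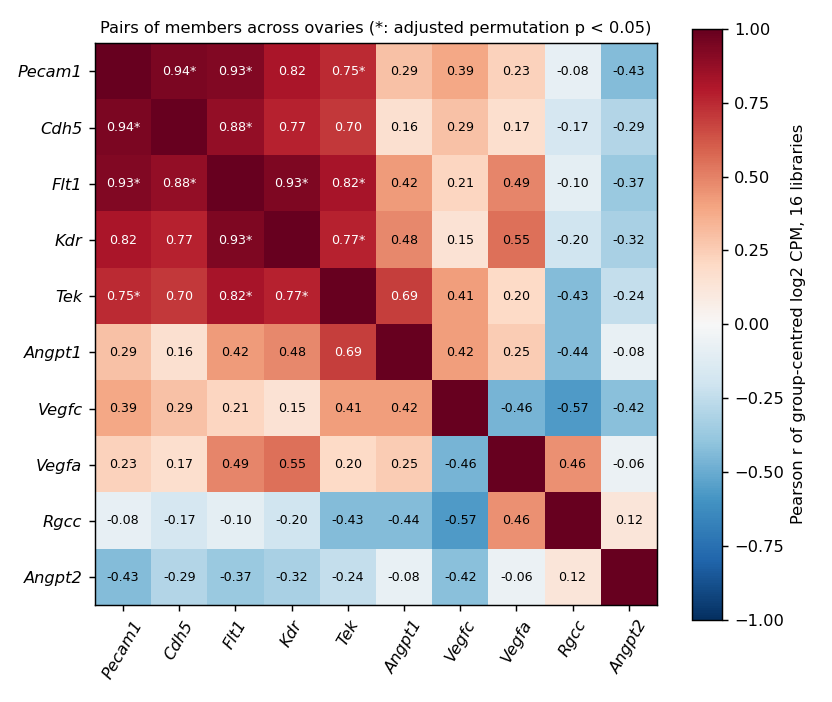
Pearson r between pairs of members over 16 libraries after each group's mean log2 CPM was subtracted, with colour from -1 to 1 and a star where the permutation p passed after adjustment over 45 pairs. The block of Pecam1, Cdh5, Flt1, Kdr and Tek at the upper left holds all 7 stars.

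The genes most like Cdh5 by the same measure among 13444 named genes of at least 1 CPM were Pecam1 (r = 0.94), Ube2d1 (0.93), B3gnt3 (0.92), Rasip1 (0.92) and Rnf157 (0.91). Those most like Vegfa were Pdxp (0.96), Cabp1 (0.91), Ppp1cc (0.89), Exoc3l2 (0.88) and Mlxipl (0.88). Those most like Rgcc were Ttc1 (0.91), Glrx3 (0.91), Vamp3 (0.89), Hyal2 (0.88) and Pigx (0.88). These r are descriptions over 16 libraries that share their depth and tissue make-up. Each gene listed for Vegfa or Rgcc had its group's highest CPM in Control for Post T library 1, as Vegfa and Rgcc did. Pdxp stood there at 9.66 CPM and Cabp1 at 23.8 CPM, against at most 6.01 and 9.74 CPM in the other controls of that group. No r was computed without that library, so these r may rest largely on it. Of the 14 genes named here other than Pecam1, 3 were called in a treatment comparison. Over all tested genes 9.27% were called on testosterone and 12.3% after it. Rnf157 rose on testosterone (log2 0.62, edgeR adjusted p = 0.0194) and after it (log2 0.50, edgeR adjusted p = 0.0496), Ppp1cc fell after it (log2 -0.55, edgeR adjusted p = 0.00749), and Cabp1, a calcium-binding protein gene, fell after testosterone from 11.9 ± 8.08 to 3.14 ± 0.442 CPM (log2 -1.91, edgeR adjusted p = 0.000817).

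ANGPT1 and ANGPT2 compete for the same receptor, and their ratio was taken per ovary in TPM. This ratio was chosen after the values of both genes were seen, which the adjustment below does not cover. It was 2.23, 2.26, 2.08 and 2.18 in the Control for On T and 4.09, 1.54, 2.17 and 2.29 on testosterone. The treated ratios lay on both sides of the controls, since library 1 was high in Angpt2 and library 2 in Angpt1 (1.08 times the controls as a geometric mean, exact two-sided permutation p = 0.714). In the Control for Post T it was 1.58, 2.06, 1.81 and 2.01, and in the Post T ovaries 3.21, 2.06, 2.23 and 2.699. All 4 treated ratios lay above all 4 controls, though the lowest treated and the highest control value both round to 2.06 (1.36 times higher as a geometric mean, exact permutation p = 0.0286, adjusted p = 0.0429 over 3 comparisons). This p is the smallest that 4 against 4 ovaries can give. It rose to between 0.0571 and 0.114 in 5 of the 8 single omissions, those of each control library and of Post T library 1. In every omission the remaining Post T ratios still lay above the remaining controls. With 1 ovary fewer and groups of unequal size the exact p is coarser, so these omissions cannot tell how far the difference rests on single ovaries. An exact permutation p of 0.0286 also separated the 2 control groups from each other, with the older controls at 0.847 of the younger.

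**Figure D4:**
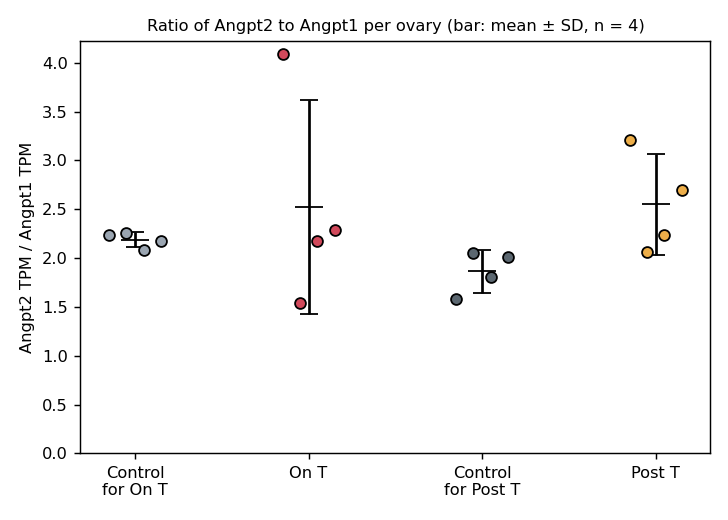
Ratio of Angpt2 to Angpt1 in TPM (vertical axis, linear, from 0) in each ovary, with the mean ± SD of 4 per group. The 4 Post T ratios run from 2.06 to 3.21 and those of their controls from 1.58 to 2.06, while the On T ratios spread from 1.54 to 4.09.

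Among other lists of the vascular system, lymphatic markers had the most calls for their size on testosterone, 4 of 7, and the other lists had 1 to 4 calls each. Of all tested genes 9.27% were called in that comparison, 4.24% higher and 5.03% lower. Of 25 other endothelial markers, 4 rose and 0 fell on testosterone (median log2 0.14). Vwf, which encodes the clotting factor stored in endothelial cells and platelets, rose from 15.1 ± 3.64 CPM to 36.1 ± 11.8 CPM (a log2 change of 1.25, SE 0.25, edgeR adjusted p = 0.00383). Cd34, a surface sialomucin of endothelium and also of stromal progenitors, rose by 0.60 (edgeR adjusted p = 0.0017), Tmem100, a target of endothelial BMP signalling, by 0.86 (adjusted p = 0.00576), and Clec14a, an endothelial lectin, by 0.43 (adjusted p = 0.0233). Without On T libraries 2 and 4 together, 1 of the 25 was called. After testosterone 1 of the 25 rose and 2 fell (median -0.06), where 7.49% of all tested genes were called higher and 4.81% lower. Vwf was again higher, at 16.5 ± 4.80 and 39.3 ± 4.47 CPM (log2 1.25, edgeR adjusted p = 0.0023). The members that fell were Gpihbp1, which anchors lipoprotein lipase in capillaries (log2 -0.75, edgeR adjusted p = 0.0295), and Cyyr1 (log2 -0.53, edgeR adjusted p = 0.0276). Neither fall was called without Control for Post T library 1 or 3, or without Post T library 1, 2 or 3. Red cell and platelet markers had 0 of 7 calls by edgeR in both comparisons and at most 1 under any alternative, and their sum lay between 47.4 and 218 CPM over all libraries.

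Lymphatic endothelial markers had the highest median of the lists on testosterone, at log2 0.70 over 7 genes, of which 4 rose and 0 fell. Of all tested genes 4.24% were called higher and 5.03% lower. Mmrn1, a multimerin of lymphatic vessels, rose from 24.9 ± 2.36 CPM in controls to 58.7 ± 13.8 CPM (a log2 change of 1.23, SE 0.22, edgeR adjusted p = 0.00157). Ccl21a, a chemokine of lymphatic vessels that has near-identical copies in the genome and is uncertain for that reason, rose from 86.6 ± 14.7 to 190 ± 60.3 CPM (log2 1.13, edgeR adjusted p = 0.00265). Reln (log2 0.70, adjusted p = 0.0448) and Pdpn (log2 0.37, adjusted p = 0.0356), which other ovarian cells can express too, were the other risers. Lyve1 (log2 0.72, adjusted p = 0.121) and Prox1 (log2 0.64, adjusted p = 0.151), the defining lymphatic receptor and transcription factor, did not pass. After testosterone 1 of the 7 was called, Ccl21a (log2 0.97, edgeR adjusted p = 0.00513), beside 12.3% of all tested genes. In 13 of 26 alternatives 2 or 3 were called, most often with Mmrn1 or Lyve1 added, among them DESeq2 (3), no filter (3), age as a covariate (3), and single omissions of Control for On T library 2, Control for Post T library 2 or 3, On T library 2 or 3, or Post T library 1 or 4. The sum of the list was 221 to 254 CPM in the Control for On T and 316 to 551 on testosterone, and 195 to 287 and 334 to 427 in the later cohort. With On T libraries 2 and 4 left out, 1 of the 7 was called on testosterone. Limma on TPM called 2, as did edgeR without Control for On T library 1, 2 or 4 or On T library 1.

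Over all tested genes, 4.24% rose and 5.03% fell on testosterone, and 7.49% rose and 4.81% fell after it. Of 21 other angiogenic ligands, 1 rose on testosterone, Angpt4, another angiopoietin (6.68 ± 0.537 to 14.6 ± 3.95 CPM, log2 1.13, edgeR adjusted p = 0.00549). After testosterone 2 rose, the VEGF relatives Vegfb (log2 0.46, edgeR adjusted p = 0.0166) and Vegfd (log2 0.70, edgeR adjusted p = 0.0492). The first count was 0 without On T libraries 2 and 4, and 2 higher and 1 lower with DESeq2. The second was 1 with median-of-ratios factors and without Control for On T library 1, 3 or 4, On T library 3 or Post T library 1, and it was 3 higher and 1 lower with DESeq2 or without On T library 2, and 2 and 2 with the replicate block. Of 20 other receptors and co-receptors, 1 rose on testosterone, the VEGF and semaphorin co-receptor gene Nrp2 (log2 0.57, edgeR adjusted p = 0.0392). That count was 0 with limma, with the 8 libraries alone, and without Control for On T library 2 or 4 or On T library 1, 2 or 4, and it was 2 with DESeq2. After testosterone 2 rose and 1 fell. Cd36, a scavenger receptor of thrombospondin and lipids that macrophages and capillaries both make, rose from 62.4 ± 13.0 to 282 ± 28.5 CPM (log2 2.18, edgeR adjusted p = 1.28e-06) beside the macrophage markers given above. Cd47 rose by 0.41 (adjusted p = 0.028), and Unc5b, a netrin receptor of sprouting endothelium, fell by 0.56 (adjusted p = 0.00357).

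Pericyte and vascular muscle markers were led by genes of smooth muscle. Of 13 tested, 2 rose on testosterone, Acta2 (516 ± 56.7 to 852 ± 292 CPM, log2 0.72, edgeR adjusted p = 0.0296) and Myh11 (log2 0.97, edgeR adjusted p = 0.0314), with On T library 2 highest for Acta2 at 1289 CPM. Both are made by all smooth muscle. Without On T library 2, or without Control for On T library 2 or 4, 0 of the 13 were called by edgeR, and limma or the 8 libraries alone called 1. The pericyte genes Rgs5 (log2 -0.42), Pdgfrb (-0.26) and Cspg4 (-0.07) did not pass, and neither did Des (0.91, edgeR adjusted p = 0.310) or Tagln (0.43). The median of the list was -0.19, with 5 of the 13 above 0. After testosterone 0 of 13 were called by edgeR, and at most 1 under any alternative (median -0.27). Of 19 hypoxia response genes, 2 rose on testosterone and 1 rose and 1 fell after it. The median log2 of the list was -0.06 on testosterone and -0.07 after it, and 7 of the 19 were above 0 in each comparison. Epas1, which encodes the endothelial hypoxia-inducible factor HIF-2 alpha, rose in both, from 228 ± 23.5 to 295 ± 14.8 CPM (log2 0.37, edgeR adjusted p = 0.0289) and from 216 ± 33.2 to 293 ± 15.2 CPM (log2 0.44, edgeR adjusted p = 0.00733). Pdk1 rose on testosterone (log2 0.39, adjusted p = 0.0378), and Egln3, an oxygen-sensing hydroxylase, fell after it (log2 -1.44, edgeR adjusted p = 0.031). On testosterone the count was 0 with limma and without On T library 4, 0 higher and 1 lower without Control for On T library 1 or 3, and 1 without Control for On T library 2 or 4 or On T library 1. After it, no fall was called with limma, without Control for Post T library 4 or without any 1 of the 4 Post T libraries. Against 9.27% and 12.3% of all genes, the called shares of these lists rest on few genes each.

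**Figure D5:**
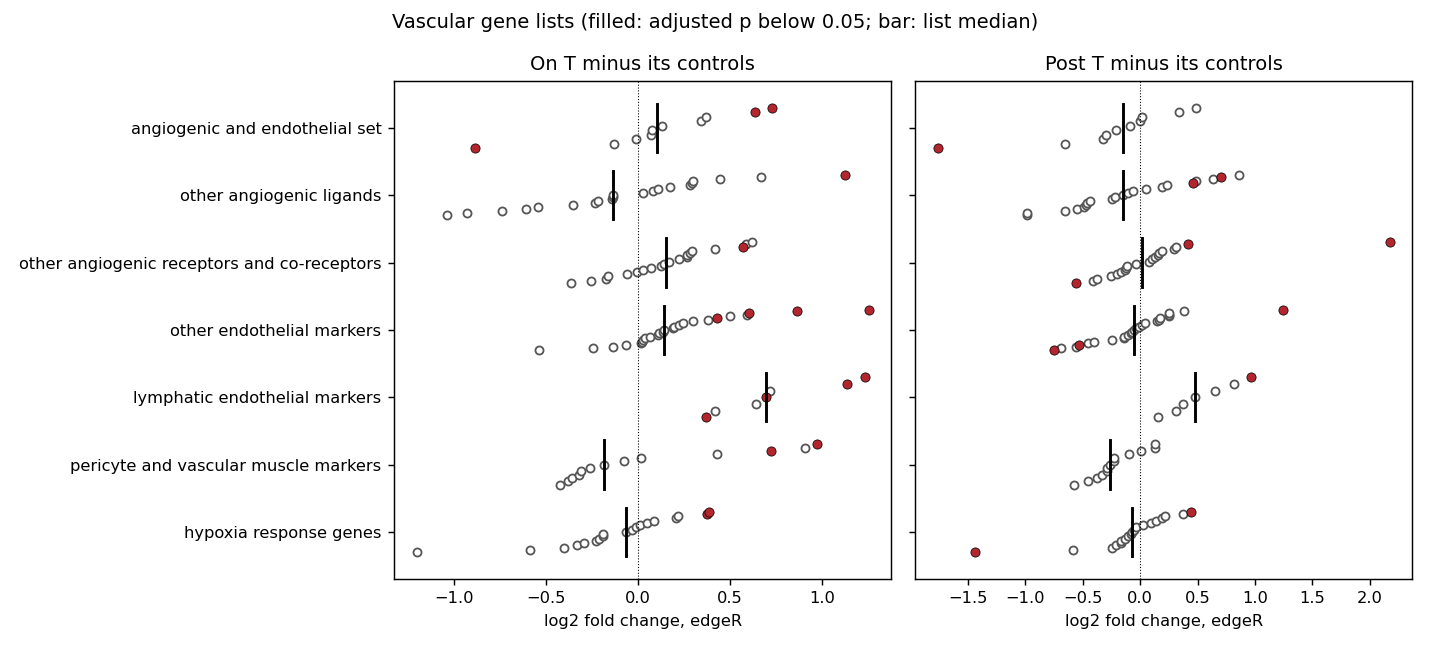
Log2 fold change (horizontal axis, edgeR) of each gene of 7 vascular lists for On T (left) and Post T (right) against their controls, filled where the adjusted p passed, with the list median as a bar. The lymphatic list lies furthest to the right on testosterone, with a median of 0.70, and the filled Cd36 at 2.18 stands apart among receptors after it.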

How the data were processed

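Poly(A) RNA of 16 mouse ovaries was sequenced as paired ends from directional libraries, per the labels' protocols. Tools listed in the submitters' processing notes are STAR 2.7.8a, RSEM 1.3.3, cutadapt 2.3 and FastQC 0.11.8, with build GRCm38 and no order of steps. Neither the annotation version nor strand handling is given in the sources used here. The deposited expected counts are the authors' estimated counts per gene, not normalised, and held whole numbers throughout. The deposited TPM values were scaled for length and library size by the authors. FPKM values, deposited as well, did not enter any result.

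The test was edgeR 4.0.16 under R 4.3.3 (TMM, filterByExpr with a minimum count of 10, 18833 of 55426 genes kept, 1 mean per group over all 16 libraries, quasi-likelihood F test, Benjamini-Hochberg over all tested genes at 0.05). Standard errors and 95% intervals follow from the fold change and its F statistic. The labels call the samples biological replicates from separate mice. Replicate numbers recur across groups. Same-numbered libraries deviated together at most weakly (r -0.02 to 0.13 and 0.04 to 0.23), and they were not treated as pairs. With 4 numbers per cohort, this check cannot tell whether libraries of the same number were collected or processed together. No library pair within a group agreed within sampling noise (chi-square per degree of freedom of at least 15.6). Floors of 3 counts came to 0.0571 to 0.117 CPM and cover counting error only.

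Counts of calls and the members' fold changes were also computed with DESeq2 1.42.0, median-of-ratios scaling, no low-count filter, a filter of 1 CPM in 4 libraries, limma 3.58.1 on log2(TPM + 1) and log2(TPM + 0.1), the 8 libraries compared alone (not for the difference of effects), a replicate block, age (Post T against its controls only), each library left out, and On T libraries 2 and 4 left out together. The ratio of angiopoietins was recomputed from CPM and with each library left out, and the correlations had no alternative beyond leaving out the 2 farthest libraries. Genes named are the 10 members, up to 4 called genes of smallest p per list and treatment comparison, the 5 genes most like Cdh5, Vegfa and Rgcc, and Akr1c18. A few named beside them, such as Lyve1 and Rgs5, were chosen after their values were seen, as was the ratio of angiopoietins. The members and lists were chosen with earlier results of these data known. In data simulated for On T against its controls over 18612 genes, the fit recovered 39% of 100 genes changed 1.5-fold and 77% of 100 changed 2-fold, with 8 of 124 calls false. GENCODE M21 held 55240 of the 55426 identifiers.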

Additional observations from a re-analysis of the deposited data

Results flagged for a closer look

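In groups of 4 ovaries, single libraries that lay far from the other 3 were sought over 57 genes and 228 groups, and 19 were found, 6 of them in the 40 groups of the 10 genes. Chance flags about 1 in 20 groups, which is 2 of those 40. Control for Post T library 1 held the highest Vegfa (157.2 CPM against 72.86 to 85.71) and the highest Rgcc (82.73 CPM against 36.35 to 43.16) of its group. In TPM the Vegfa of that group spread less, from 47.66 to 73.36. The same library was also apart for Ttc1 (47.5 CPM), Glrx3 (120.5 CPM) and Vamp3 (123.4 CPM), which were named for their likeness to Rgcc, and for Tmem100, which was low (21.31 CPM). On T library 2 was high for Angpt1 (38.95 CPM against 21.97 to 24), Vegfd (18.87 CPM) and Acta2 (1289 CPM). Post T library 3 was low for Kdr (69.51 CPM against 75.73 to 76.66) and high for Cdh5 (145.4 CPM against 121.3 to 125.1). Control for On T library 3 was low for Tek (28.83 CPM against 36 to 36.36). Among other genes, Cd34 stood at 119.8 CPM in Control for On T library 1, Pdpn at 59.81 CPM in On T library 1 and Akr1c18 at 1.041 CPM in On T library 3. Acta2 stood at 624.7 CPM in Control for Post T library 2, Egln3 at 13.48 CPM and Ube2d1 at 38.39 CPM in Control for Post T library 4, and Insl3 at 45.34 CPM in Post T library 4.

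The effect after testosterone was larger than the effect on it, by the test of the difference in edgeR, for Cd36 (by 1.558 on the log2 scale, adjusted p = 0.00359) and for the macrophage genes Itgax (1.529, adjusted p = 0.00355), Cd68 (1.439, adjusted p = 0.0149) and Tyrobp (1.453, adjusted p = 0.0165).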

How the results depend on the processing

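The fall of Rgcc after testosterone was called under every alternative run. Members called on testosterone numbered 1 without On T libraries 2 and 4, and 1 to 3 with single libraries left out. After testosterone they numbered 2 with DESeq2 or age (Vegfa added), the 8 libraries alone (Flt1) and the replicate block (Angpt2), and 1 to 2 with single libraries left out. The block changed no other member's call. Same-numbered libraries correlated at most weakly, and in each cohort only replicate 2 correlated best with its own number. Whether the numbers mark samples handled together is not settled by this. For the difference of effects DESeq2 called 1 member. Genes called on testosterone numbered 1130 with limma on log2(TPM + 1), 766 without On T libraries 2 and 4, and 1081 to 2071 with single libraries left out. After testosterone that range was 1753 to 2568. DESeq2 called 999 for the difference (783 higher, 216 lower, against 551 and 61), and single omissions gave 453 to 735. Between controls 20 were called with no filter, 173 with DESeq2, and 0 to 9 with single omissions. Small log2 changes turned sign, and the cause was not tested. Without On T libraries 2 and 4, Vegfc was -0.017, Kdr -0.038 and Cdh5 -0.17 on testosterone, and the difference of effects was 0.38 for Vegfc, 0.16 for Pecam1 and 0.19 for Cdh5. Flt1 on testosterone was 0.0081 with median-of-ratios factors, 0.0061 with the 1 CPM filter, 0.0082 with DESeq2 and 0.0051 with 8 libraries. Cdh5 after testosterone was -0.0060, -0.0059, -0.035, -0.035, -0.0060 and -0.0012 with median-of-ratios, DESeq2, limma with pseudocounts 1 and 0.1, 8 libraries and age. With limma Tek after testosterone was -0.068 and -0.073, and Angpt2 between controls 0.021 and 0.022. The Vegfc difference was 0.012 with the block. With single libraries left out, changes that turned sign ranged as follows: Vegfa on testosterone -0.027 to 0.19, Kdr on testosterone -0.018 to 0.24, Flt1 on testosterone -0.16 to 0.12, Cdh5 on testosterone -0.046 to 0.20, Tek after it -0.013 to 0.063, Cdh5 after it -0.062 to 0.057, Vegfc for the difference of effects -0.18 to 0.20, Cdh5 for the difference of effects -0.18 to 0.046, Cdh5 between controls -0.063 to 0.18, Rgcc between controls -0.020 to 0.46. The log2 ratio of angiopoietins ranged from -0.15 to 0.32 on testosterone and from 0.32 to 0.53 after it. After testosterone the test missed 0.05 in 5 of 8 omissions, though the groups still did not overlap. With 4 ovaries a group, the SE of the 10 genes' log2 changes with treatment lay between 0.13 (Tek) and 0.27 (Rgcc), which limits the resolution of smaller changes.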
